A study of Mus musculus with 20 samples.

Results

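The libraries described here are the saline liver of the study, sequenced on Illumina and on Ion Torrent: 10 of the 20 samples of the series, from 5 of its 10 mice. They were chosen by their labels alone, with no measured value used: the mouse had received saline, and the Illumina library of each mouse was set beside the Ion Torrent library of the same mouse (UNT_9574, UNT_9575, UNT_9576, UNT_9580 and UNT_9584) in the tables made with the aligner STAR. All mice of the series were 12-week-old males of the strain that one label writes as C57/BL6 and another as C57/B6J. The saline mice were the untreated arm. The 5 other mice had received IL-1B, an inflammatory cytokine, at 20 µg/kg, and enter only where a platform difference was repeated in them; livers of both arms were taken 4 hours after the injection. One RNA preparation per liver was split between a stranded mRNA kit read as pairs on an Illumina HiSeq and an Ion Total RNA-Seq kit read as single reads on an Ion Torrent Proton, both on poly-A selected RNA. The platform therefore cannot be told apart from the library kit, the read layout and the separate normalization of each table, and every difference below is one between these 2 sets of libraries.

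The liver makes most plasma proteins, turns nitrogen into urea, stores and releases glucose, builds lipoproteins and bile acids, and modifies foreign compounds. Hepatocytes carry out nearly all of this work and fill most of the organ, while Kupffer cells (the resident macrophages), sinusoidal endothelium, stellate cells and bile duct cells make up the rest. The liver transcriptome is steep: a few transcripts for secreted proteins take a large part of all mRNA. A short-read library reports each transcript as a share of its reads.

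The label of the tissue was checked against marker genes. The 12 hepatocyte markers (Alb, Cps1, Cyp2e1 and the like) took 11.1 to 12.6% of the reads of the Illumina libraries and 11.7 to 13.9% on Ion Torrent. The 10 Kupffer cell markers took 0.0165 to 0.0334% on Illumina, the 9 stellate cell markers a mean of 0.0430% and the 6 cholangiocyte markers a mean of 0.00561%. Of the 7 pancreatic acinar markers, Amy2a5, Ctrb1, Prss2, Pnlip and Cpa1 were listed at 0 in all 10 libraries, and the list summed to 7.55 to 12.2 rpm on Illumina and 11.6 to 17.8 rpm on Ion Torrent. Of the 6 neutrophil markers, Ly6g and Camp were at 0 throughout, and the list summed to 0.637 to 2.85 and 0.707 to 3.34 rpm. Marker levels of the non-parenchymal cells are shares of whole-liver RNA, in which fewer cells of a type and less RNA per cell cannot be told apart.

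The reads assigned to genes summed to between 10887640 and 11046256 per Illumina library and between 12508523 and 12723326 per Ion Torrent library. Shares are given in rpm (reads after scaling each library to a sum of 1000000) or as a percent, in the mouse order UNT_9574, UNT_9575, UNT_9576, UNT_9580 and UNT_9584. The tables do not state whether an Illumina read pair was counted once, so both are called reads. A gene was tested where at least 5 libraries held at least 5 reads, which left 13148 of 37681 listed genes. The platform ratio of each gene was fitted with edgeR's quasi-likelihood test with the mouse as a block, and called at a Benjamini-Hochberg adjusted p below 0.05. For a single summed value over 5 mice an exact sign-flip permutation test was used (2-sided); it cannot go below p = 0.0625, so no such value can pass 0.05. The Illumina library of mouse UNT_9584 stood apart from the other 4 Illumina libraries in the shares of GC-rich transcripts, as shown further on. For the same mouse the authors describe a shifted read-length distribution on Ion Torrent and a lower correlation between platforms than in the other samples. Some results that this mouse moves are also given without it. All other ratios include this mouse and can be moved by it, as the values per mouse show where they are printed.

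Albumin (Alb), the main carrier protein of plasma, led every library. It took 73985, 84484, 87482, 82749 and 82710 rpm on Illumina and 77498, 85165, 88068, 88883 and 72220 rpm on Ion Torrent, means of 8.23% and 8.24% of all reads. The 2 sets overlapped, and the gene did not pass the test (log2 ratio -0.00 ± 0.045, SE, adjusted p = 0.99, edgeR). The Illumina tables of mice UNT_9580 and UNT_9584 list the same Alb count, 908985, while their other genes differ.

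Serpina3k, a serine protease inhibitor secreted by hepatocytes, was next on Illumina with 15650, 15144, 15712, 15434 and 16113 rpm. On Ion Torrent it had 9916, 9813, 9632, 10127 and 9425 rpm. All 5 Ion Torrent libraries lay below all 5 Illumina libraries, and the log2 ratio was -0.67 ± 0.041 (SE, adjusted p = 4.6e-07, edgeR). Serpina3k has a copy at 90.1% identity elsewhere in the genome.

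Apoe, the apolipoprotein of remnant particles, went the other way. It had 8715, 8286, 10706, 11809 and 5845 rpm on Illumina against 16273, 17009, 18031, 20437 and 25111 rpm on Ion Torrent, with no overlap. The log2 ratio was 1.11 ± 0.16 (adjusted p = 0.00013, edgeR), and 0.87 without mouse UNT_9584, which had the lowest Illumina value and the highest Ion Torrent value. Apoa1, the main protein of high-density lipoprotein, was likewise higher on Ion Torrent in 5 of 5 mice, from 5491, 5069, 6659, 8366 and 3528 rpm to 10950, 10146, 12445, 15444 and 10235 rpm (log2 ratio 1.06).

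The 20 genes with the largest Illumina shares took 23.2% of the reads there and 23.6% on Ion Torrent. In order of their means, they included Alb, Serpina3k, Serpina1e, Mup3, Apoe, Scd1, Cyp3a11, Ahsg, C3, Cyp2e1, Gc, Sepp1, Pzp, Apob, Apoa1, Ttr, Cps1, Apoa2 and Fga. Of the 20 genes, 19 were also among the 20 largest on Ion Torrent. Most of those named are plasma proteins: protease inhibitors (Serpina3k, Serpina1e, Pzp), apolipoproteins (Apoe, Apob, Apoa1, Apoa2), carriers of thyroid hormone and vitamin D (Ttr, Gc), the mineral-binding fetuin Ahsg, complement C3, the selenium carrier Sepp1 and fibrinogen (Fga). The others are a pheromone-binding urinary protein (Mup3) and enzymes of fat (Scd1), drugs (Cyp3a11, Cyp2e1) and urea (Cps1). Only the step from Alb to Serpina3k separated all 5 mice on Illumina among the 20 neighbouring steps of the full order, so the rest of it is an order of means. Of the 20 genes, 7 were higher and 9 lower on Ion Torrent, where 26.8% and 36.0% of all genes tested were.

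**Figure D1:**
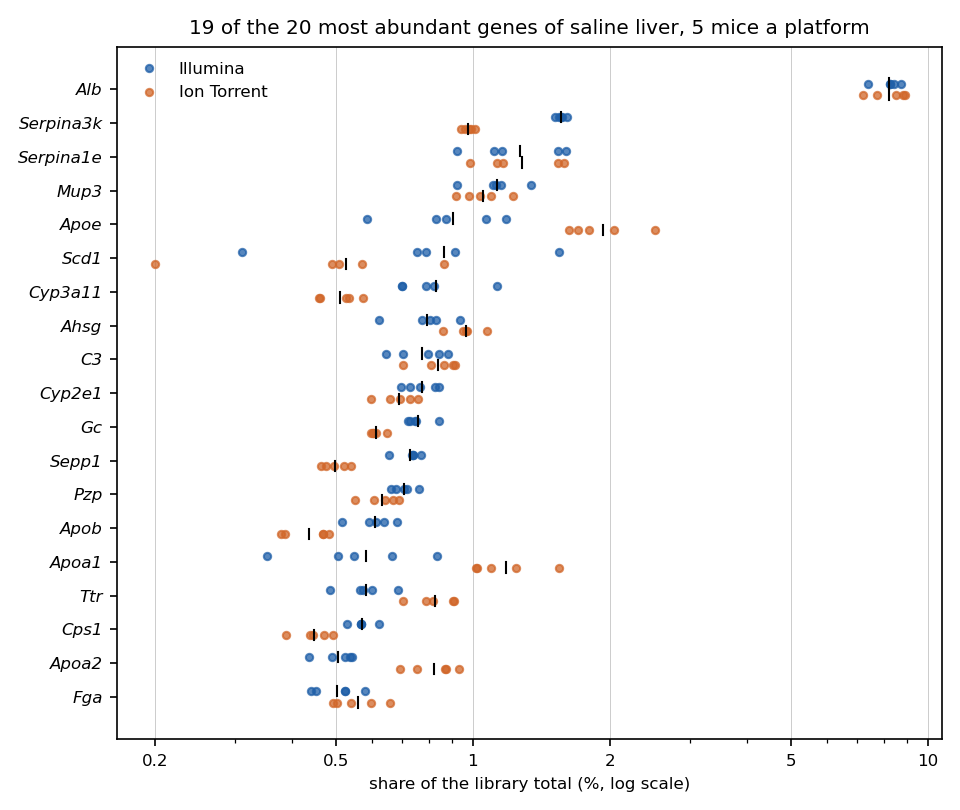
Share of the library total (percent, log axis) of 19 of the 20 genes with the largest mean share in the Illumina libraries of saline liver. Each point is 1 mouse, blue for Illumina and orange for Ion Torrent, and the black bar is the mean of 5; Apoe, Apoa1 and Apoa2 lie to the right on Ion Torrent, Serpina3k, Scd1 and Cyp3a11 to the left, and Alb in the same place.

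Read shares grow with transcript length, so levels were compared between genes per kilobase of exon. On that scale Alb had 40275 rpm per kilobase on Illumina and 40317 on Ion Torrent. Mup3 followed on Illumina with 11668, then Serpina3k with 9438 and the small apolipoprotein Apoa2 with 9429. On Ion Torrent Apoa2 followed Alb with 15338, then Mup3 with 10856 and Apoe with 9784, ahead of Apoa1. Of the 20 genes above, 13 were also among the 20 highest per kilobase on Illumina, where the short transcripts Fabp1 (7115) and Apoc1 (5580) entered and the long Apob (437) did not.

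Across all genes tested the median log2 ratio of Ion Torrent over Illumina was -0.07, with quartiles of -0.51 and 0.34, and 64.9% of genes were within 1.5-fold. Even so, 8248 genes (62.7%) were called: 3518 (26.8%) higher on Ion Torrent and 4730 (36.0%) lower. A difference above 2-fold was called for 1578 genes (12.0%), 512 higher (3.89%) and 1066 lower (8.11%). These counts depend on the aligner, with 1336 higher and 610 lower for GSNAP, and were 346 and 977 without mouse UNT_9584. Of the calls, 3122 (37.9%) were smaller than 0.5 on the log2 scale. The ranges of the 5 libraries of each platform did not overlap for 4527 genes (34.4%). TMM scaling moved the median of all genes by 0.06 and the higher share of the calls from 42.7% to 48.2%.

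The same platform difference was measured in the 5 mice that had received IL-1B, whose libraries were not used to call any of these genes. There, 3292 genes (25.0%) were higher and 4554 (34.6%) lower. Of the 3518 genes called higher in saline liver, 3454 (98.2%) had the same sign and 2834 (80.6%) were called the same way in the IL-1B mice, against 5 called the opposite way. Of the 4730 called lower, 4660 (98.5%) had the same sign, 4022 (85.0%) were called the same way and 1 the opposite way.

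The secreted proteins were described first. The 15 plasma carriers summed to 12.2% of reads on Illumina (SD 0.596, n = 5) and 12.7% on Ion Torrent (SD 0.823), a log2 ratio of 0.06 ± 0.0629 (SD) with 7 members higher, 5 lower and 3 not called. Counts of members in this and the following classes are to be read against the 26.8% of all genes that were higher and the 36.0% that were lower. Ambp, the precursor of a heme-binding protein, had a log2 ratio of 0.57 and the retinol carrier Rbp4 one of 0.32. The thyroxine carrier Serpina7 (-0.91), the copper protein ceruloplasmin Cp (-0.67) and the vitamin D carrier Gc (-0.30) were lower on Ion Torrent. The sum of this class is mostly Alb.

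The 16 apolipoproteins and lipoprotein enzymes had the largest ratio of the 27 classes drawn below in the STAR tables of all 5 mice, followed by the replication-dependent histones (0.62, 8 genes tested of 68). The histones were ahead without mouse UNT_9584 (0.59 against 0.55), with the STAR and Bowtie2 tables (0.73 against 0.58) and in the IL-1B mice (0.68 against 0.56), so this order is not firm. The apolipoproteins' summed share in the 5 mice was 3.14, 3.08, 3.77, 3.99 and 2.75% on Illumina and 4.63, 4.69, 5.33, 5.80 and 5.86% on Ion Torrent, with no overlap. The log2 ratio was 0.66 ± 0.246 (SD, n = 5; exact p = 0.0625), a 1.58-fold difference, and 0.55 without mouse UNT_9584. Of the 16 members 11 were higher (26.8% of all genes were), 3 were lower and 2 not called, with a median of 0.48. Apoa5, a regulator of triglyceride hydrolysis, had a log2 ratio of 0.93, its neighbour Apoc3, an inhibitor of lipoprotein lipase, 0.75, and the phospholipid transfer protein Pltp 0.88. Lower on Ion Torrent were Apob (-0.48), the long structural protein of very low density lipoprotein, and Apoc1 (-0.52).

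Coagulation and fibrinolysis factors (23 genes) took 2.86% on Illumina and 3.36% on Ion Torrent, a log2 ratio of 0.23 ± 0.0201 (SD). Of the members, 11 were higher, 7 lower and 5 not called (median 0.07). In the IL-1B mice the log2 ratio of the sum was smaller, 0.069 ± 0.0226 (SD). Against saline, the exact permutation test gave p = 0.00794 unadjusted and 0.0622 adjusted. Prothrombin F2 had 1614, 1561, 1739, 1805 and 1382 rpm against 2559, 2576, 2614, 2598 and 2515 rpm, with no overlap (log2 ratio 0.67). Contact factor F12 (1.06), protein C Proc (0.92), the adhesive protein vitronectin Vtn (0.77) and plasminogen Plg (0.57) were also higher on Ion Torrent. Factor F9, the X-linked gene of hemophilia B, had 237, 247, 212, 216 and 297 rpm against 111, 121, 107, 109 and 129 rpm and was lower (-1.06). The fibrinogen chains were close: Fga had 0.15 and Fgb, which was not called, -0.10.

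Complement (22 genes) took 1.93% and 1.90%, with 7 members higher, 10 lower and 5 not called (median -0.11), near the shares of all genes (26.8% and 36.0%). Factor Cfb (-0.86) was lower and C8g (0.82) higher. C3, the hub of the cascade, had 0.12. The 17 protease inhibitors took 6.29% and 5.64% (log2 ratio -0.16 ± 0.0325, SD; 6 higher, 6 lower, 5 not called). The median over the members, 0.05, had the opposite sign to the sum.

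The 21 major urinary proteins (MUPs), close paralogs on chromosome 4 that bind pheromones, are uncertain because their reads can match several of them. As a sum they took 2.34, 1.79, 1.48, 2.2 and 2.28% on Illumina and 2.07, 1.52, 1.34, 2.09 and 1.5% on Ion Torrent. The sets overlapped, although the sum was lower on Ion Torrent in 5 of 5 mice. The log2 ratio was -0.24 ± 0.208 (SD), or -0.15 without mouse UNT_9584. The members went apart: 10 were higher, 7 lower and 4 not called, and their median, 0.20, had the opposite sign to the sum. Mup7 had a log2 ratio of -1.22 and a copy at 98.6% identity elsewhere in the genome, Mup10 had -1.01 and Mup20, the pheromone darcin, -0.37. Mup6 had 1.47, 0.909, 0.453, 1.55 and 1.18 rpm on Illumina and 22.3, 11.1, 11.7, 15.9 and 17.8 rpm on Ion Torrent (3.81), which turned to -0.66 with the STAR and Bowtie2 tables. Mup3, the largest, was not called (-0.10, adjusted p = 0.22, edgeR).

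Among the enzymes, the cytochrome P450s of families 1 to 4, which oxidise drugs, steroids and fatty acids, were lower on Ion Torrent more often than higher. Of 72 listed genes 55 were tested, and 13 were higher, 26 lower (36.0% of all genes were) and 16 not called. The sum was 3.13, 3.04, 2.94, 3.03 and 3.64% on Illumina and 2.84, 2.86, 2.79, 2.85 and 2.92% on Ion Torrent (log2 ratio -0.14 ± 0.102, SD; -0.10 without mouse UNT_9584). Cyp3a11, the main drug-oxidising enzyme of mouse liver, had 8224, 7000, 6998, 7877 and 11323 rpm against 5275, 4610, 4603, 5349 and 5738 rpm, with no overlap (-0.68). Cyp2c68 (-1.21) and the ethanol-oxidising Cyp2e1 (-0.17) were lower too, while Cyp2d26 (0.86), Cyp2f2 (0.70) and Cyp1a2 (0.49) were higher.

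Conjugating enzymes, which attach glucuronate, sulfate or glutathione, had 6 members higher (26.8% of all genes were), 22 lower (36.0% of all) and 15 not called of 43 tested, and their sum went from 1.69% to 1.42% (log2 ratio -0.25). Ugt1a1, the bilirubin glucuronosyltransferase, had 287, 299, 260, 242 and 275 rpm against 125, 132, 120, 104 and 102 rpm (-1.23). The sulfotransferase Sult1d1 had -1.13 and Ugt2b1 -0.61, against 0.79 for Mgst3.

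Urea cycle and amino acid enzymes (30 genes) summed to 3.26% on Illumina and 3.33% on Ion Torrent, although 29 members were called, 17 higher and 12 lower (median 0.33). Gnmt, which methylates glycine and is abundant in hepatocytes, had 964, 1044, 1340, 1354 and 810 rpm against 2369, 2771, 3032, 2902 and 3088 rpm (1.38, no overlap). In the urea cycle itself the activator synthase Nags (1.0) and the lyase Asl (0.96) were higher, and the first enzyme Cps1 lower (-0.35). The alanine transaminase Gpt had 0.87 and the betaine methyltransferase Bhmt, which has a copy at 99.4% identity, -0.78.

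Against 26.8% of all genes higher and 36.0% lower, glucose and glycogen enzymes (19 genes) had 9 members higher, 4 lower and 6 not called, with the gluconeogenic Pck1 at 0.19 and the UDP-glucose synthase Ugp2 at -0.78. Fatty acid oxidation (25 genes) had 15 higher, 7 lower and 3 not called, among them the isomerase Eci1 (0.97) and Hadhb (-1.30) of the trifunctional protein, the latter with a copy at 97.6% identity. The log2 ratio of the sum was 0.11 for glucose and 0.06 for fatty acid oxidation. Bile acid genes (17) had 4 higher and 10 lower, with the rate-limiting Cyp7a1 at -0.56, the uptake transporter Slco1b2 at -0.87 and the repressor Nr0b2 at 0.88.

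Fatty acid and cholesterol synthesis (24 genes tested) had the lowest ratio among the enzyme classes. Its sum was 0.751, 1.21, 1.5, 1.13 and 1.96% on Illumina and 0.665, 0.992, 1.23, 0.868 and 1.31% on Ion Torrent (log2 ratio -0.34 ± 0.151, SD, lower in 5 of 5 mice, exact p = 0.0625). Mouse UNT_9574 was lowest and mouse UNT_9584 highest on both platforms. Scd1, which makes monounsaturated fatty acids, had 3108, 7877, 9140, 7561 and 15477 rpm against 2000, 4915, 5718, 5071 and 8656 rpm (-0.68), so each mouse was lower on Ion Torrent although the 2 ranges overlapped. Members of the same pathway lay on both sides: fatty acid synthase Fasn had 0.80 and its regulator Srebf1 0.88, while the carboxylase Acaca had -0.68 and the isoprenoid enzyme Idi1 -1.89. Of this class 9 genes were higher, 12 lower and 3 not called.

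Genes of the cell's own machinery were mixed as well. Nuclear subunits of oxidative phosphorylation (80 tested) summed to 1.16, 1.17, 1.25, 1.28 and 1.18% on Illumina and 1.38, 1.38, 1.44, 1.5 and 1.47% on Ion Torrent (log2 ratio 0.25 ± 0.0448, SD), with 41 members higher and 22 lower (26.8% and 36.0% of all genes were). Uqcrq of complex III had 96.3, 72.8, 143, 136 and 47.3 rpm against 311, 304, 380, 375 and 360 rpm (1.89), and Atp5d of the ATP synthase 1.28. Cox6c, with a copy at 96.6% identity, had -1.06. Cytosolic ribosomal proteins (81 tested) had 42 higher and 25 lower and a sum of 1.42% against 1.56% (0.14), a ratio that was 0.62 with the GSNAP tables and 0.00747 with the STAR and Bowtie2 tables. Rplp2 of the ribosomal stalk (1.40) and Rpl18 (1.28) were higher with all aligners.

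Regulatory genes have fewer reads. The 16 immediate early and stress genes tested summed to 0.0151, 0.0237, 0.0177, 0.0261 and 0.0213% on Illumina and 0.0209, 0.0297, 0.0255, 0.0391 and 0.0345% on Ion Torrent (log2 ratio 0.52 ± 0.138, SD). Of the 16, 9 were higher, 8 of them more than 2-fold, where 3.89% of all genes were, and 2 were lower. Junb, a subunit of the AP-1 transcription factor, had 10.5, 1.91, 7.33, 13.8 and 2.27 rpm against 28.7, 13.8, 27.1, 54.5 and 42.7 rpm (2.28), Jund 2.06 and Ier2 1.75. Cebpb, a factor of the acute phase, had 12.1, 7.72, 12.7, 11 and 6.55 rpm against 62.2, 50.1, 80.0, 61.3 and 84.3 rpm (2.75, no overlap). The 18 liver transcription factors were closer, with 9 higher and 4 lower, among them Cebpa (0.84) and the xenobiotic receptor Nr1i3 (-0.70), while Hnf4a did not pass the test (0.06, adjusted p = 0.26, edgeR). Zinc finger proteins named Zfp were mostly lower, 162 of 308 (36.0% of all genes were) against 53 higher (26.8% of all), at a median of -0.47.

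**Figure D2:**
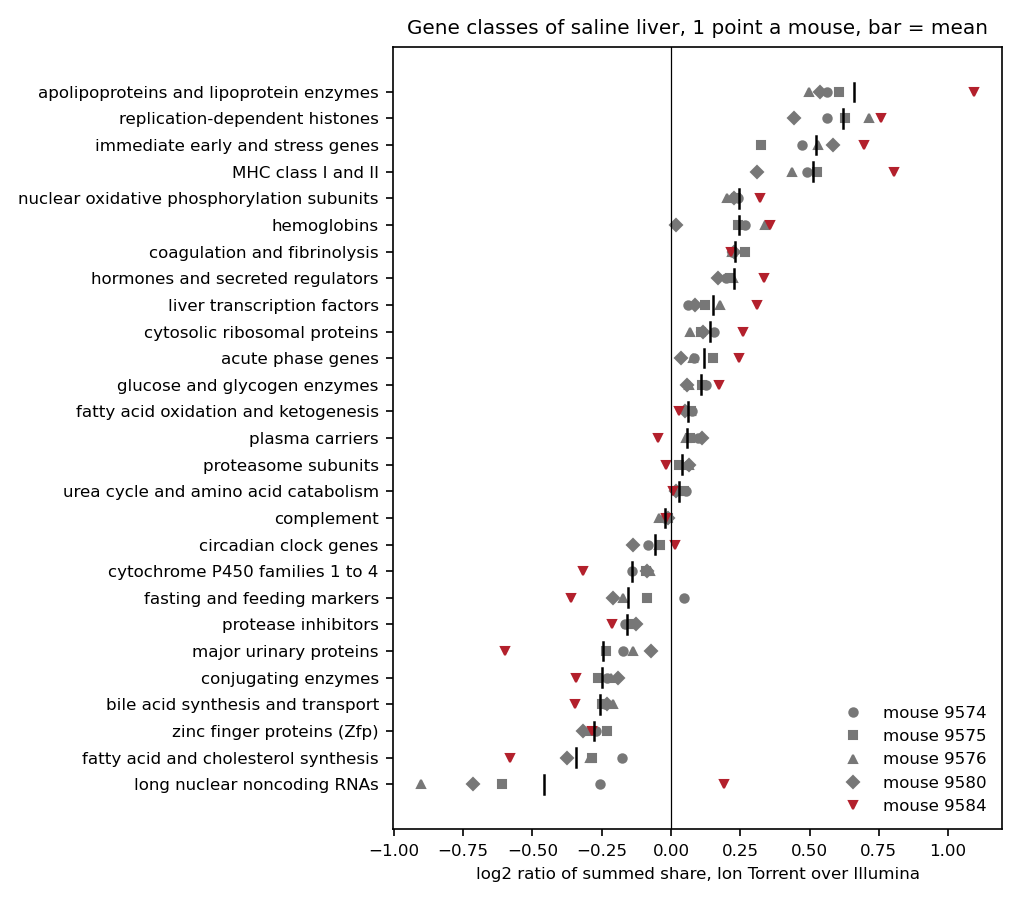
Log2 ratio of the summed share of each gene class, Ion Torrent over Illumina, in saline liver. Each symbol is 1 mouse, red for mouse UNT_9584, and the bar is the mean of 5; apolipoproteins are at the top with 0.66, next to histones with 0.62 (in the reverse order without that mouse), and long nuclear noncoding RNAs at the bottom with -0.46.

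Over all 47 classes and biotypes compared, the smallest Benjamini-Hochberg adjusted p of the exact sign-flip permutation test was 0.0948. Against the IL-1B mice, the exact permutation test (5 against 5) cannot go below p = 0.00794. At an unadjusted p under 0.05, 10 classes differed. None did after adjustment, where classes at that lowest p had 0.0622. Among these were coagulation (0.230 in saline and 0.069 in IL-1B mice), the P450s (-0.142 and -0.020) and the acute phase genes (0.119 and -0.021). Equal class ratios in both arms are thus not shown.

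The genes with the largest ratios among well-expressed protein-coding genes differed in base composition. Stretches of 90 bases of the coding sequence, chosen where their GC content is nearest to that of the whole coding sequence, are shown for 3 such genes (Chchd10, Lrg1 and Hnrnpa2b1) and for Apoe and Cyp3a11, so that this can be seen. They come from the NCBIM37 (mm9) genome with GENCODE models, are written 5′ to 3′, and have G and C in capitals. Chchd10 (chr10:75398318-75400470, plus strand, coding bases 100 to 189), Lrg1 (chr17:56259103-56261369, minus strand, 160 to 249) and Apoe (chr7:20281458-20284515, minus strand, 40 to 129) were higher on Ion Torrent.
Chchd10: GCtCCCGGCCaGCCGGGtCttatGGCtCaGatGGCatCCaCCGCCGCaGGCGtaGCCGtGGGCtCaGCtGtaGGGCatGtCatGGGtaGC
Lrg1: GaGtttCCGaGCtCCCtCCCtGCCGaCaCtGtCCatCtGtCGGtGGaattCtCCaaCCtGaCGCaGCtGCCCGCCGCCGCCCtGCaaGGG
Apoe: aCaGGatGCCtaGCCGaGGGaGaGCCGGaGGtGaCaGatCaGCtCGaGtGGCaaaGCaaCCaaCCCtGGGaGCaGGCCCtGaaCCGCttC
Cyp3a11 (chr5:146666002-146691540, minus strand, 67 to 156) and Hnrnpa2b1 (chr6:51410433-51419893, minus strand, 49 to 138) were lower.
Cyp3a11: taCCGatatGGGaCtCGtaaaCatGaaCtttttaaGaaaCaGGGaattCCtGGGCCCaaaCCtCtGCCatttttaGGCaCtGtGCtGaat
Hnrnpa2b1: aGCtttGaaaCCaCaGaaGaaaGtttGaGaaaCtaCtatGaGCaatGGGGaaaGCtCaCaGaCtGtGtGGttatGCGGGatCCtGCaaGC
The whole coding sequences held 67.1% G and C in Chchd10, 65.4% in Lrg1 and 62.5% in Apoe, against 43.0% in Cyp3a11 and 46.0% in Hnrnpa2b1.

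Chchd10, a small mitochondrial protein, had 124, 111, 179, 164 and 65.3 rpm on Illumina and 353, 441, 492, 457 and 826 rpm on Ion Torrent, with no overlap. Its log2 ratio was 1.98 ± 0.27 (SE, adjusted p = 8.5e-05, edgeR) and 1.6 without mouse UNT_9584, whose Illumina value was the lowest and Ion Torrent value the highest of the 5. Lrg1, a secreted leucine-rich glycoprotein, had 188, 103, 197, 137 and 52.5 rpm against 477, 342, 557, 375 and 432 rpm (1.79, or 1.5 without mouse UNT_9584). Both genes were more than 2-fold higher in each mouse.

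Hnrnpa2b1, which binds and processes RNA, had 422, 420, 354, 365 and 427 rpm on Illumina and 163, 164, 137, 152 and 154 rpm on Ion Torrent. It was lower by a log2 ratio of -1.37 ± 0.05 (SE, adjusted p = 2.0e-08, edgeR). The vitamin E carrier Ttpa (-1.32), Ugt1a1 (-1.23) and the RNA helicase Ddx5 (-1.23) were also at the lower end, with Pgk1, described below. Oaz1 (1.73), which restrains polyamine synthesis, Cox6a1 (1.6) of complex IV, Gnmt (1.38) and Lars2 were at the upper end with Chchd10 and Lrg1.

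The whole set of protein-coding genes showed the same order. In 12364 genes with a transcript GC content, it correlated with the log2 ratio across genes (Pearson's r = 0.653, Spearman's rho = 0.789), as a description, since genes share the same 10 libraries. In quintiles of GC content the median log2 ratio went from -0.70 (32.8 to 44.4% GC) over -0.33, -0.05 and 0.23 to 0.58 (55.9 to 71.4% GC). In the lowest quintile 82.2% of genes were called lower, and in the highest 71.7% higher. Transcript length went the other way and less steeply, with medians from 0.19 in the shortest quintile to -0.28 in the longest (r = -0.152). Length and GC content were linked: the highest GC quintile held 683 genes of the shortest length quintile and 282 of the longest. Within the lowest GC quintile the shortest and the longest genes had medians of -0.49 and -0.81. These were 0.03 and -0.13 in the middle GC quintile, and 0.71 and 0.55 in the highest.

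The median of the highest GC quintile exceeded that of the lowest by 1.07, 1.26, 1.15, 0.954 and 2.04 in the 5 saline mice (mean 1.29, SD 0.430, exact p = 0.0625). Mouse UNT_9584 had the widest gap, and the mean without it was 1.11. The IL-1B mice had 0.807 to 1.25, with a mean of 1.02 (saline against IL-1B, exact permutation p = 0.214). Set against the other 4 libraries of its platform, Illumina UNT_9584 was 0.156 higher in the lowest quintile and 0.590 lower in the highest, a gap of -0.746 on the log2 scale. The gaps of the other Illumina libraries were 0.052 to 0.345 and those of the Ion Torrent libraries -0.214 to 0.175, where UNT_9584 had the highest.

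**Figure D3:**
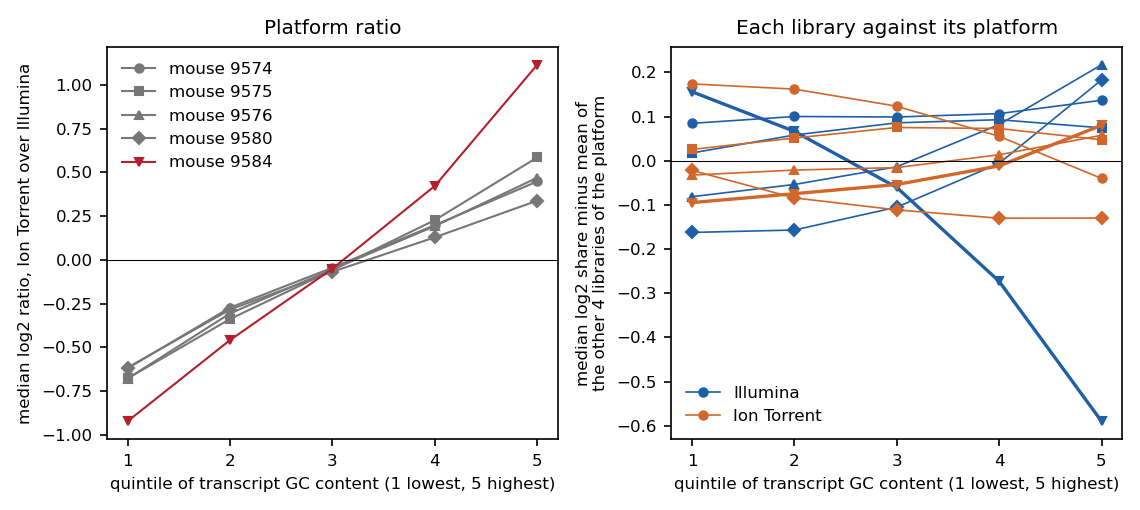
Left, median log2 ratio of Ion Torrent over Illumina in each quintile of transcript GC content, 1 line per saline mouse, with mouse UNT_9584 in red. Right, median log2 share of each library minus the mean of the other 4 of its platform; every line on the left rises from below 0 to above 0, and the bold blue line of Illumina UNT_9584 falls to -0.590 in the highest quintile.

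The classes above followed this order only in part. After the ratio of each gene was centred on genes of like GC content, the median over the members of the apolipoprotein class was 0.27 instead of 0.48, that of the P450s 0.10 instead of -0.22, and that of the conjugating enzymes 0.02 instead of -0.17. The median of the Zfp genes went from -0.47 to -0.08. Other classes moved away from 0, the MUPs from 0.20 to 0.80 and coagulation from 0.07 to 0.27. Of the 458 protein-coding genes more than 2-fold higher on Ion Torrent 81.4% were in the highest GC quintile, and of the 737 more than 2-fold lower 71.8% were in the lowest. The second set also held more genes with a copy elsewhere in the genome at 90% identity or more: 34.3%, against 9.61% of the first and 9.67% of all.

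Genes with near-identical copies formed the other group with large ratios. Where a transcript had a copy at 98% identity or more elsewhere in the genome (453 genes), the median log2 ratio was -0.67 and 34.2% were more than 2-fold lower on Ion Torrent, against -0.01 and 3.97% of the 10337 genes with no copy found. The median of the 453 genes was -0.43 after centring on GC content, -0.24 with the STAR and Bowtie2 tables and -0.09 with the GSNAP tables. Annotated pseudogenes went the same way: their summed share was 0.219, 0.213, 0.255, 0.226 and 0.238% on Illumina and 0.0825, 0.0789, 0.129, 0.109 and 0.0845% on Ion Torrent, with no overlap (log2 ratio -1.27 ± 0.238, SD). Of 375 tested, 293 were lower, 277 of them more than 2-fold, and 32 were higher. Values of such genes are uncertain, since an aligner can place the reads at either copy.

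Atp5l, a small subunit of the mitochondrial ATP synthase, had the lowest ratio among called genes with a mean of at least 100 reads and at least 10 on each platform. It had 84.2, 86.6, 92.0, 94.7 and 78.3 rpm on Illumina and 2.31, 1.34, 1.89, 2.59 and 1.04 rpm on Ion Torrent, a log2 ratio of -5.57 ± 0.13 (SE, adjusted p = 1.1e-09, edgeR). With the GSNAP tables the ratio was 2.69, in the opposite direction. Its coding sequence of 312 bases recurs with 0 mismatches at chr5:24087369-24087680 (minus strand, NCBIM37), where the pseudogene Gm10221 is annotated. Coding bases 112 to 201 are shown with the same stretch of the copy, both in lower case since no base differs.
Atp5l: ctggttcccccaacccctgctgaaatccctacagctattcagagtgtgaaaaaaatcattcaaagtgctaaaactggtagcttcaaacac
Gm10221: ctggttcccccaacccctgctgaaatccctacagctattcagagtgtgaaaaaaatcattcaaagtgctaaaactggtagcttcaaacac
A read inside this stretch cannot be assigned to either place by its sequence.

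Pgk1, the X-linked glycolytic kinase, has a full-length copy of its 1254 coding bases with 0 mismatches at chr12:10905794-10907047 (minus strand, Pgk1-rs7). It had 298, 307, 305, 247 and 310 rpm against 132, 129, 125, 100 and 110 rpm (log2 ratio -1.30), and 0.09 with the GSNAP tables. Genes of the nuclear annotation can also copy mitochondrial DNA, and 5 that were compared with it matched at 95.9 to 100% identity. One of them, Gm13340 (chr2:22443623-22445167, minus strand), had 523, 492, 490, 436 and 675 rpm on Illumina and 10.5, 13, 12.3, 9.27 and 10.4 rpm on Ion Torrent (-5.55). Its neighbour Gm13341 had -5.43, and with GSNAP the 2 ratios were 3.30 and 4.47. The 37 mitochondrially encoded genes themselves were listed at 0 in every library, and the authors' normalization removes mitochondrial reads, so these zeros say nothing about expression.

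Genes that overlap a neighbour on the opposite strand were the third group. In 66 protein-coding genes at least 50% of the exon bases lie opposite an exon of another gene, and there the median log2 ratio was -0.72, with 22 (33.3%) more than 2-fold lower on Ion Torrent. It was -0.82 after centring on GC content and -0.76 with GSNAP. Genes that share no exon base had a median of -0.05. Both kits keep the strand, but whether the counts used it is not given in the sources used here, so reads of such pairs are uncertain.

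**Figure D4:**
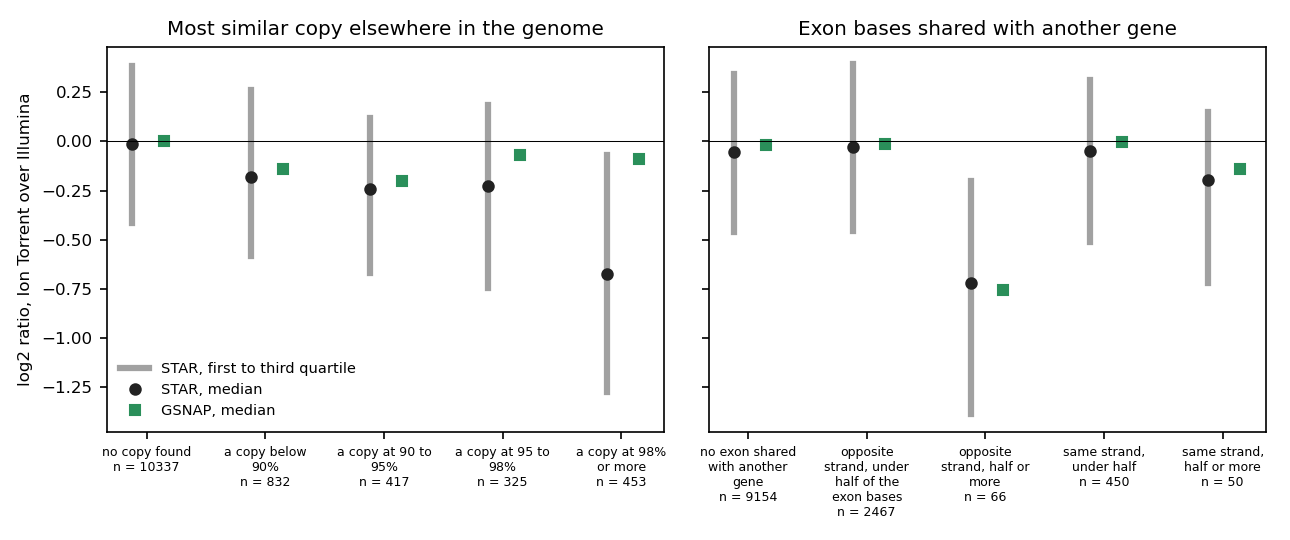
Log2 ratio of Ion Torrent over Illumina in saline liver for protein-coding genes, grouped by the identity of their most similar copy elsewhere in the genome (left) and by the exon bases shared with another gene (right). Black points are STAR medians, grey bars run from the first to the third quartile and green squares are GSNAP medians; genes with a copy at 98% or more have -0.67 with STAR and -0.09 with GSNAP, while genes with at least 50% of their exon bases opposite another gene stay near -0.72 with both.

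Some genes had reads on 1 platform only. At 0 in all 5 Ion Torrent libraries but at a mean of 5 reads or more on Illumina were 53 genes, 13 protein-coding and 35 pseudogenes, and 45 of them did have Ion Torrent reads in the GSNAP tables. Sco2, a copper chaperone of cytochrome oxidase, had 118 to 249 reads per Illumina library and 0 on Ion Torrent, which is at least 308-fold lower when 3 reads are allowed over the 5 libraries. All of its exon bases lie opposite those of Ncaph2. Rbm15b, an RNA-binding protein (48 to 79 reads, at least 114-fold lower), lies opposite Vprbp, and Gm10222, a gene of mitochondrial sequence that is annotated as protein-coding (94 to 163 reads, at least 219-fold), had 3108 Ion Torrent reads in the GSNAP tables.

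In the other direction 17 genes were at 0 on Illumina, 1 of them protein-coding and 5 annotated as miRNA genes. The 2 with the most Ion Torrent reads are shown whole, with G and C in capitals, because they are short and very rich in both: AL844840.2 (chr2:72850911-72850984, minus strand, 74 bases) and AC113316.1 (chr5:147072579-147072660, plus strand, 82 bases).
AL844840.2: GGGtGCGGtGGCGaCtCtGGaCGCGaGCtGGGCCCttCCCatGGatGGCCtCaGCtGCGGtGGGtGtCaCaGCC
AC113316.1: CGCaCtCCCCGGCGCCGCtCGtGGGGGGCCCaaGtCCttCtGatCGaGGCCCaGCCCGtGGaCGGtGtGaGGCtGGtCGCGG
G and C make up 70.3% and 74.4% of these sequences. AL844840.2 had 309 to 1494 reads per Ion Torrent library, at least 1135-fold higher than on Illumina, and AC113316.1 had 371 to 705, at least 815-fold higher. With STAR, the small nucleolar RNA Snord118 (20 to 35 reads, at least 37.4-fold) was also read on Ion Torrent only. So was the histone gene Hist1h4h (5 to 14 reads). GSNAP gave Illumina reads for 7 of the 17 genes, among them Snord118 with 4 reads and Hist1h4h with 1. It gave none for AL844840.2 and AC113316.1. Neither of these sequences matched mitochondrial DNA, and a match to ribosomal RNA was not tested, so the origin of their reads is uncertain.

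The remaining genes at the ends of the ranking had fewer reads. Zfp771 had 1.19, 0.818, 1.36, 1.37 and 1.09 rpm on Illumina and 14.2, 15.3, 19.1, 18.7 and 24.1 rpm on Ion Torrent (log2 ratio 3.95). Gm9786, a pseudogene, had 5.37. Sf3b5 (2.45), a small splicing subunit, the mitochondrial Bola1 (2.41), the tight junction protein Cldn3 (2.27) and Gm16517 (2.65) followed. Echdc1, a metabolite proofreading enzyme with no copy found, had 97.3, 82.7, 88.8, 92.5 and 128 rpm against 12.4, 10.1, 11.3, 13.9 and 13.8 rpm (-2.98), and its ratio stayed between -2.85 and -2.99 with the other aligners. The pseudogenes Gm7204 (-4.16), Bhmt-ps1 (-3.96), Gm13456 (-3.06), Scp2-ps2 (-2.93) and Gm9826 (-2.92) and the translocon subunit Sec61g (-3.03) completed the lower end, and each of these 6 had a positive ratio with at least 1 of the other aligners.

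The number of genes seen was close on the 2 platforms. With at least 5 reads, 13244, 13134, 13117, 13077 and 12997 genes were detected on Illumina and 13061, 12916, 12895, 12883 and 12879 on Ion Torrent, fewer in 5 of 5 mice by a mean of 187 (SD 41.9, exact p = 0.0625). The direction depended on the aligner: GSNAP gave 1328 more on Ion Torrent and STAR with Bowtie2 908 more. With STAR, 12410 genes were detected in at least 3 libraries of both platforms, 649 on Illumina only, of which 49.9% were pseudogenes, and 439 on Ion Torrent only, of which 76.1% were protein-coding, at a median GC content of 55.7%.

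Reads were slightly more concentrated on Ion Torrent in the 100 largest genes, but not in the largest one (8.23% and 8.24%). The 10 largest took 17.4% on Illumina and 18.1% on Ion Torrent, higher in 4 of 5 mice (exact sign-flip p = 0.125). The 100 largest genes took 41.5% of the reads on Illumina and 42.9% on Ion Torrent, a difference of 1.36 points in the mean that was positive in 5 of 5 mice (exact p = 0.0625). On Illumina 200.4 genes in the mean made up 50% of the reads (182 to 223) and on Ion Torrent 179.4 (151 to 196). Mouse UNT_9584 had 185 on both platforms.

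The spread between saline mice was measured on each platform. The median SD over mice of the log2 share was taken over 7520 genes with at least 100 reads in the mean. It was 0.199 on Illumina and 0.175 on Ion Torrent, and 0.167 and 0.172 without mouse UNT_9584. Genes with a mean of at least 500 Illumina reads were then ranked by their Illumina SD. The 8 genes with the largest SD were Bcl6, Cyp4a14, Lars2, Mfsd2a, Phlda1, Ppp1r3b, Rpl36 and Srebf1. They were chosen for this spread, so it is a description.

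Bcl6, a repressor of lipid genes, had 81.9, 73.2, 7.42, 58.1 and 79.3 rpm on Illumina and 86.3, 82.3, 7.79, 54.7 and 91.2 rpm on Ion Torrent. Mouse UNT_9576 was low on both platforms. Cyp4a14, an omega-hydroxylase of fatty acids, had 127, 295, 348, 56.4 and 700 rpm and then 96.6, 220, 285, 44.0 and 451 rpm, in the same order of mice. Phlda1 was high in mouse UNT_9580 on both, at 189 and 376 rpm. Ppp1r3b, which directs a phosphatase to glycogen, was lowest in that mouse, at 79.4 and 51.6 rpm, and Mfsd2a, a lipid transporter, was low in mice UNT_9574 and UNT_9580 on both.

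For Srebf1, Rpl36 and Lars2 the platforms parted in mouse UNT_9584. Srebf1, the regulator of fat synthesis named above, was lowest there on Illumina (62.7 rpm, against 102 to 383 in the other 4), while its Ion Torrent value of 199 rpm was above that of mouse UNT_9580 (142). Rpl36 had 13.3 rpm in Illumina UNT_9584, against 36.1 to 87.4 rpm in the other 4, and 116 rpm in Ion Torrent UNT_9584, within the other 4 (105 to 146). Lars2, the mitochondrial leucyl-tRNA synthetase, had 615, 174, 1297, 1255 and 14.9 rpm on Illumina and 5273, 2369, 3554, 5404 and 4953 rpm on Ion Torrent. Its log2 ratio was 3.33 ± 0.75 (SE, adjusted p = 0.0026, edgeR), 2.57 without mouse UNT_9584 and 1.35 in the IL-1B mice. The Lars2 transcript had no match to mitochondrial DNA. A match to ribosomal RNA was not tested, so its values are uncertain as levels of the synthetase mRNA.

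**Figure D5:**
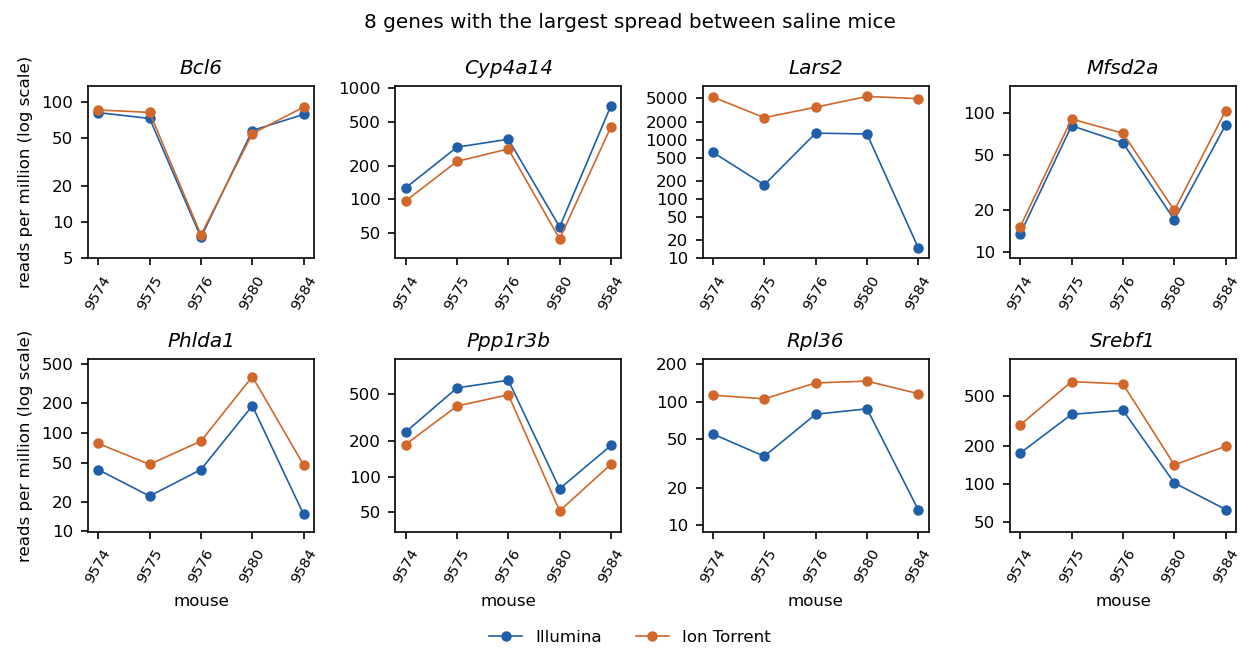
Share in rpm (log axis) of the 8 genes with the largest spread between saline mice on Illumina, among genes with a mean of at least 500 Illumina reads. There is 1 point per mouse, blue for Illumina and orange for Ion Torrent. The 2 lines run in parallel for Bcl6, Cyp4a14, Mfsd2a, Phlda1 and Ppp1r3b, and part at mouse UNT_9584 for Lars2, Rpl36 and Srebf1.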

How the data were processed

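Liver RNA of 5 saline and 5 IL-1B mice was sequenced on both platforms. The authors aligned the reads to mm9 with STAR 2.5.1b, GSNAP 2015-12-31 or STAR followed by Bowtie2 2.2.9 (versions per the submitters' processing notes), normalized each table separately by randomly re-sampling reads with PORT, which first discards ribosomal RNA and mitochondrial reads, and deposited whole-number counts per Ensembl gene. The counter's strand setting is not given in the sources used here. Total counts per STAR library were 10887640 to 11046256 (Illumina) and 12508523 to 12723326 (Ion Torrent), and the IL-1B libraries had 10568530 to 10655860 and 12199528 to 12310601; floors cover counting error only.

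Counts were analysed as shares of the library total. Genes with at least 5 reads in at least 5 of the 10 saline STAR libraries were fitted with edgeR 4.0.16 (quasi-likelihood, library totals without TMM, mouse as block, R 4.3.3), with Benjamini-Hochberg adjustment. The mouse numbers pair the libraries because both came from the same animal: deviations from the platform means correlated with r = 0.593, 0.687, 0.605, 0.623 and 0.237 (mouse UNT_9584) over 10937 genes. Summed shares were compared by exact sign-flip permutation over mice. Replicate libraries of a platform differed by 16.2 to 43.0 in chi-square per gene, so none was counted as a duplicate. The p-values of these paired tests set a platform difference against its variation over 5 animals, with 1 library per platform each. They do not measure the spread between animals.

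Gene positions, transcripts, GC content and exon overlaps came from GENCODE vM1 on NCBIM37 (mm9), which held 37310 of the 37681 listed identifiers and all 13148 tested. Copies were found with minimap2 2.31-r1302 over at least 50% of a transcript, and blastn 2.17.0 compared chosen genes with mitochondrial DNA. Tables were handled with Python 3.11.15, pandas 2.3.3, numpy 2.4.6, scipy 1.17.1, bedtools 2.31.1 and samtools 1.23.1. On simulated counts for the 13148 genes of the saline comparison, 200 were changed by 1.5 on the log2 scale. Of these edgeR recovered 190, and it called 6 unchanged genes. DESeq2 1.42.0 gave 170 and 4, and limma 3.58.1 (voom) 189 and 8. The simulation gave all genes the same dispersion, with no platform effect outside the 200 and none that varied by mouse. It therefore does not test the number of genes called in the data.

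Genes named are the 20 with the largest Illumina share; the 10 highest and 10 lowest called ratios with a mean of at least 100 reads, 10 on each platform and one sign in all 5 mice; the 6 highest and 6 lowest protein-coding ones with at least 100 rpm on both platforms; the largest member and the extreme ratios of each list; the 8 genes of largest spread with at least 500 Illumina reads; the 3 largest genes of either platform with under 1 read on the other; and defining markers. A few genes that this rule selects are not reported here. Further list members were named after their values were seen. The members and gene lists were chosen with earlier results of these data known. Alternatives were TMM scaling, other filters, DESeq2, limma, the other aligners, no block and leaving out each mouse. Centring on GC content was chosen after seeing the data.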

Additional observations from a re-analysis of the deposited data

Results flagged for a closer look

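In 33 sets of 5 saline mice (class ratios, GC and length differences, concentration, detection and library deviations), the highest or lowest value was compared with the nearest other by Dixon's ratio, and 6 passed the critical value for 5 samples. Chance alone passes about 1 in 20. Mouse UNT_9584 was the distant mouse in 5 of the 6. Its log2 ratio of the summed apolipoprotein share was 1.09, against 0.50 to 0.61 in the other 4 mice. Its ratio for the cytochrome P450s was -0.32 against -0.14 to -0.07, and for bile acid genes -0.34 against -0.25 to -0.21. The difference between the highest and the lowest GC quintile was 2.04 in that mouse against 0.954 to 1.26, and the deviation of its Illumina library from the other 4 across those quintiles was -0.746 against 0.052 to 0.345. The sixth was mouse UNT_9575, with a coagulation ratio of 0.27 against 0.22 to 0.23.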

How the results depend on the processing

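The counts of genes called higher or lower stayed within 1.5 times under DESeq2, limma, TMM, the filters and the other aligners. Over these settings they were 3035 (mean of at least 50 reads) to 4554 (GSNAP) higher. Between 3623 (DESeq2) and 4909 (no filter on low counts) were lower. Without each mouse in turn, 3001 to 3503 were higher and 4285 to 4829 lower. Without the replicate block, 2598 genes were called higher and 3715 lower, and 24 of the 136 named genes no longer passed, while class ratios are the same by construction. Above 2-fold, GSNAP gave 1336 higher and 610 lower, STAR with Bowtie2 1576 and 553, and a mean of at least 50 reads 294 and 464. Without 1 mouse these were 346 (without UNT_9584) to 641 and 977 to 1123. The difference in detected genes was -93.4 at 10 reads, -377.4 after thinning, 1327.8 with GSNAP and 908.2 with STAR and Bowtie2, with 180 and 363 genes only on Illumina and 1478 and 1284 only on Ion Torrent. Class ratios with GSNAP were 0.62 (ribosomal), -0.57 (MUPs) and 0.30 (oxidative phosphorylation). With STAR and Bowtie2 they were 0.00747 (ribosomal), 0.185 (oxidative phosphorylation), -0.000956 (fatty acid oxidation), -0.00856 (carriers), -0.019 (proteasome) and -0.028 (urea cycle). With TMM they were 0.036 (complement) and 0.303 (oxidative phosphorylation). After GC centring, chosen after seeing the data, class medians changed sign for P450s (0.102), conjugating enzymes (0.022), fat and cholesterol synthesis (0.045), bile acids (0.066), transcription factors (-0.038), acute phase (0.090) and clock genes (-0.036). Gene ratios of opposite sign with GSNAP were Atp5l 2.69, Bhmt-ps1 0.54, Gm10222 0.51, Gm13340 3.30, Gm13341 4.47, Gm7204 0.15, Gm9826 0.28, Pgk1 0.0878, Sec61g 1.39 and Serpina1e -0.12. With STAR and Bowtie2 they were Bhmt-ps1 1.45, Gm10222 3.02, Gm13456 1.92, Gm7204 0.56, Gm9826 2.28, Hbb-b1 0.57, Mup6 -0.66 and Scp2-ps2 2.41. The causes were not tested. Genes of few reads have wide errors, and the exact sign-flip test of a summed value over 5 mice cannot pass 0.05, while without the block (5 against 5, exact permutation test) 13 of 27 classes had an unadjusted p of 0.00794 to 0.0397.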

Other observations

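Several gene groups of resting liver were left out above. The class I antigen-presenting gene H2-K1 had 905, 884, 1020, 1020 and 898 rpm on Illumina and 1484, 1473, 1570, 1476 and 1685 rpm on Ion Torrent (log2 ratio 0.70, no overlap), and the class II gene H2-Ab1 had 0.86. Of 17 MHC genes tested 7 were higher, 1 lower and 9 not called. Among 17 secreted hormones and regulators 13 were higher and 4 lower (26.8% and 36.0% of all genes were), with angiotensinogen Agt at 421, 444, 533, 577 and 302 rpm against 770, 872, 975, 906 and 875 rpm (0.98), the binding protein Igfbp2 at 0.90, and the growth factor Igf1 (-0.32) and the growth hormone receptor Ghr (-0.46) lower. The 18 acute phase genes had 7 higher and 9 lower, with metallothionein Mt1 at 1.45, the iron hormone Hamp at 0.30 and Crp at -0.63; their sum (0.12) and median (-0.06) differed in sign. The alpha-globin Hba-a1 had 13.6, 8.45, 17.1, 22.4 and 4.55 rpm against 37.9, 28.4, 44.3, 38.6 and 34.2 rpm (1.56), while Hbb-b1 did not pass the test (-0.03). Hba-a1 has a copy at 99.9% identity.

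Genes that follow the hour or the last meal differed between mice on both platforms. The clock repressor Nr1d1 had 41.7, 33.0, 20.2, 88.6 and 59.5 rpm on Illumina and 71.4, 60.6, 29.3, 114 and 138 rpm on Ion Torrent, and the clock output factor Dbp 83.5, 78.2, 34.1, 120 and 83.7 against 87.7, 75.9, 34.7, 115 and 100.1 rpm. Mouse UNT_9576 had the lowest value of both genes on both platforms. Nr1d1 was higher on Ion Torrent (0.76), its paralog Nr1d2 lower (-1.01), and Dbp was not called (0.05). The fasting-induced Igfbp1 had 43.2, 12.3, 52.2, 13.6 and 19.3 rpm and then 52.0, 13, 69.1, 19.9 and 32.5 rpm, in the same order of mice. In non-parenchymal markers, 4 of 10 Kupffer cell genes were higher and 2 lower, among them the lectin Clec4f (0.22). Of 9 sinusoidal endothelial genes 6 were higher and 2 lower, among them the scavenger receptor Stab1 (0.30). The 9 stellate cell genes had 2 higher, 3 lower, among them Dcn (-0.17) and Rgs5 (-0.95), and 4 not called, with a log2 ratio of the sum of 0.00325. The nuclear noncoding RNAs Malat1 (-0.46) and Neat1 (-0.39) were lower.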
